A study of Mus musculus with 20 samples.

Results

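Which CTCF sites were still called after auxin-driven degradation of CTCF was asked by setting the CTCF peak list of untreated parental CTCF-AID mouse embryonic stem cells (mESCs) against the list made after 2 days of auxin. The untreated list held 26394 peaks and the auxin list 2381, so the comparison rests on 28775 of the 136043 peaks in the 12 lists of the series. A peak is a stretch of the genome with more sequenced chromatin immunoprecipitation (ChIP) fragments than the local background. A WT peak that overlapped an auxin peak by at least 1 bp was named residual, any other WT peak was named lost, and an auxin peak without a WT partner was named ΔCTCF-only.

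The study degraded CTCF, knocked out Maz, or did both in mESCs, and mapped CTCF, MAZ and the cohesin subunit RAD21 by ChIP followed by sequencing. Both groups described here were E14 mESCs in which CTCF carried an auxin-inducible degron (CTCF-AID), a tag that marks the protein for destruction once the plant hormone auxin is added. The cells were grown with LIF and 2 kinase inhibitors (2i), which hold them in a naive state. WT denotes this tagged line without auxin, and ΔCTCF denotes the same line after 2 days of auxin, so the control also carries the tag. The antibody was the same CTCF antibody from Millipore in both groups. Each group had 1 peak list, a further CTCF sample of each condition was not analysed here, and the labels do not say whether the line is 1 clone. With 1 list a side there is no replicate error, every interval below is a Wilson 95% interval that covers counting error over peaks only, and no p-value was computed. Peak lists hold no expression values, so the cell type was not checked against marker genes.

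CTCF is a zinc finger protein that reads a long, directional DNA motif and holds up cohesin, the ring complex that extrudes chromatin loops. Loops and domain boundaries form mainly where cohesin meets CTCF bound in the orientation that faces the loop. Part of the motif can carry CpG dinucleotides, and CTCF binds many such sites less well when they are methylated.

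Sequences of 6 sites are printed first, since the residual and the lost class both held strong peaks over the same motif. The motif was learned from all WT peaks without use of the auxin list, and the letters CCANNAGNGGGC were its most constant part. Capitals mark the 20 bases that matched it, each line is written 5′ to 3′ on the strand of the motif, and the positions are those of build mm10. Residual sites come first, 3 of the 10 named residual sites described below, which were ranked by fold enrichment in ΔCTCF. They lay near Gm16754 at chr9:21220565-21220635 (minus strand), near Gm12349 at chr11:100300475-100300545 (minus) and near Slc29a3 at chr10:60760488-60760558 (plus). The 3 lost sites come from the 10 named lost sites described below, which were ranked by fold enrichment in WT. These 3 lay near Ndufa4l2 at chr10:127512992-127513062 (plus), near Gbx1 at chr5:24530170-24530240 (minus) and near Ifi30 at chr8:70769524-70769594 (minus).
Gm16754, residual: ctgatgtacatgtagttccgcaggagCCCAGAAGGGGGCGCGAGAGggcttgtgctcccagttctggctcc
Gm12349, residual: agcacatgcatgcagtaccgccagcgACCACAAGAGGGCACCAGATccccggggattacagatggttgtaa
Slc29a3, residual: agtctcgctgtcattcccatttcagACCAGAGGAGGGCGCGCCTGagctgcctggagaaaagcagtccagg
Ndufa4l2, lost: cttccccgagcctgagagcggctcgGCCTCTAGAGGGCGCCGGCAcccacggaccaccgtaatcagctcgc
Gbx1, lost: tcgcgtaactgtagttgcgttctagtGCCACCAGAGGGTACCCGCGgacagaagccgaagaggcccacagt
Ifi30, lost: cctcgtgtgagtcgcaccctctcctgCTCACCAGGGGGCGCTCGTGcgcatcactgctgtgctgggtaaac

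After auxin, 2331 of the 26394 WT peaks were still called, a share of 8.83% (8.50 to 9.18), and 24063 were not. Seen from the other side, 2329 of the 2381 ΔCTCF peaks overlapped a WT peak, a share of 97.8% (97.1 to 98.3), which left 52 ΔCTCF-only peaks. The residual share depended on which peaks were admitted. Keeping only peaks whose −log10 q reached 10, in WT and in ΔCTCF alike, gave 4.79%, and it was 42.5% when only the 2381 strongest WT peaks, as many as the ΔCTCF list holds, were counted. The shares of 8.83% and 97.8% are the background against which counts of sites are read below. No WT peak overlapped 2 ΔCTCF peaks, and only 2 ΔCTCF peaks spanned 2 or more WT peaks, so the pairs were almost all 1 to 1. Allowing a gap of 100 bp between the peaks added 4 WT peaks to the residual class, a gap of 500 bp added 79, and a gap of 5000 bp added 911.

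The WT library was the deeper of the pair. Summit pileup, the number of fragments over the summit, had a median of 21 over the WT list and 11 over the ΔCTCF list. The ratio of depths was 1.58 by the depth index (the lowest background divided by the smallest peak width) and 1.43 by the lowest background alone. A lost site is therefore a site without a call, which is not the same as a site without CTCF. The lowest pileup that could pass in ΔCTCF was 5 fragments, and for the median lost site this stood at 39.9% of its WT signal after scaling by depth, so that a smaller remainder would not have been called. Among lost sites of the strongest decile of WT peaks by fold enrichment the same limit stood at 15.2%. At 8 fragments, the 5th percentile of the ΔCTCF list, those limits were 65.7% and 25%. Had their pileup been unchanged, 92.5% of the lost sites would have passed at the depth of the ΔCTCF library by the lower limit and 72.8% by that of 8 fragments. In the weakest decile these were 31.1% and 0.806%, and in the strongest 100% by either.

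Residual sites were mostly strong in WT. Fold enrichment, the deposited ratio of pileup to local background at the summit, had a median of 26.7 (quartiles 21.3 to 33.6) at residual sites and 12.4 (7.99 to 18.4) at lost sites. When WT peaks were ranked into deciles, 10 equal groups, the residual share was at most 1.33% in each of the 5 weakest deciles and then ran through 2.73%, 6.86%, 12.1% and 21.4% to 41.2% (39.3 to 43.1) in the strongest decile. Even at the top of the list the share stayed below completeness, with 9 of the 10 strongest WT peaks, 74 of the 100 strongest and 540 of the 1000 strongest called after auxin. Widths followed strength, with a Spearman correlation of 0.802 between width and fold enrichment across the 26394 WT peaks of this 1 library. Residual sites had a median width of 346 bp in WT and lost sites one of 274 bp. Within the strongest decile the residual share still ran from 30.9% (27.1 to 34.9) in the narrowest quintile to 47.2% (42.9 to 51.4) in the widest, while the median fold enrichment ran from 30.6 to 34.

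**Figure D1:**
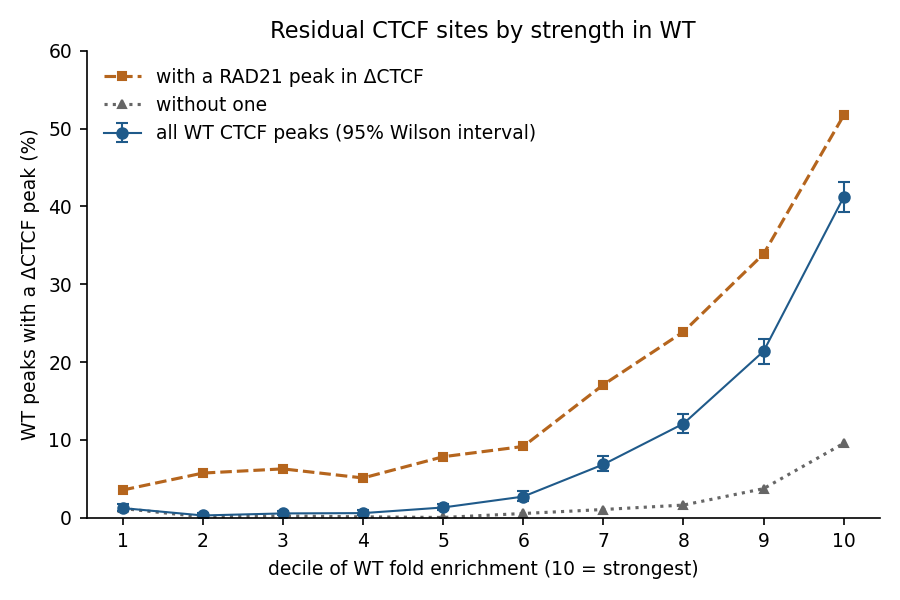
Share of WT CTCF peaks with an overlapping ΔCTCF peak (y axis, %) by decile of WT fold enrichment (x axis, 10 is the strongest), for all WT peaks with 95% Wilson intervals and separately for peaks with and without a RAD21 peak in ΔCTCF. The share over all peaks reaches 41.2% in the strongest decile, where it is 51.7% with a RAD21 peak and 9.57% without one.

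The weakest decile broke this order, with 33 residual sites (1.25%) against 8 in the next decile. Of these 33, 28 had a WT background of at least 5 fragments, and 0 had the motif. Over the whole WT list 40 peaks had such a background and 30 of them were residual. They gathered in a few places, with 17 on chromosome 9, among them those at the predicted genes Gm10717 to Gm10722 near its start, 6 beside Gm21738 on chromosome 14 and 4 beside Gm10800 and Gm10801 on chromosome 2. Without the 40 peaks the residual share was 8.73%.

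At the 2331 shared sites the signal was lower in ΔCTCF almost throughout. Median summit pileup was 43.0 fragments in WT and 11 in ΔCTCF. After subtraction of the background and scaling by the depth index, the median site kept 43.1% of its WT signal (quartiles 33.2 to 57.6), or 39.1% when the libraries were scaled by the lowest background instead. The study added Drosophila chromatin to each sample as a spike-in control. The peak lists hold no spike-in counts, so the remainders given here were not scaled by it. In bulk cells, a site bound in fewer cells and a site bound less in each cell cannot be told apart. This median describes only sites that were called in ΔCTCF, and it was lowest, at 36.1%, in the strongest decile, where weaker remainders could still be called. The order of sites carried over loosely, with a Spearman correlation of 0.385 between fold enrichment in WT and in ΔCTCF over the 2331 sites, which share their local sequence and background. Summits moved little, by a median of 21 bp, and 88.2% lay within 50 bp of the WT summit. Median peak width was 346 bp in WT and 226 bp in ΔCTCF.

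**Figure D2:**
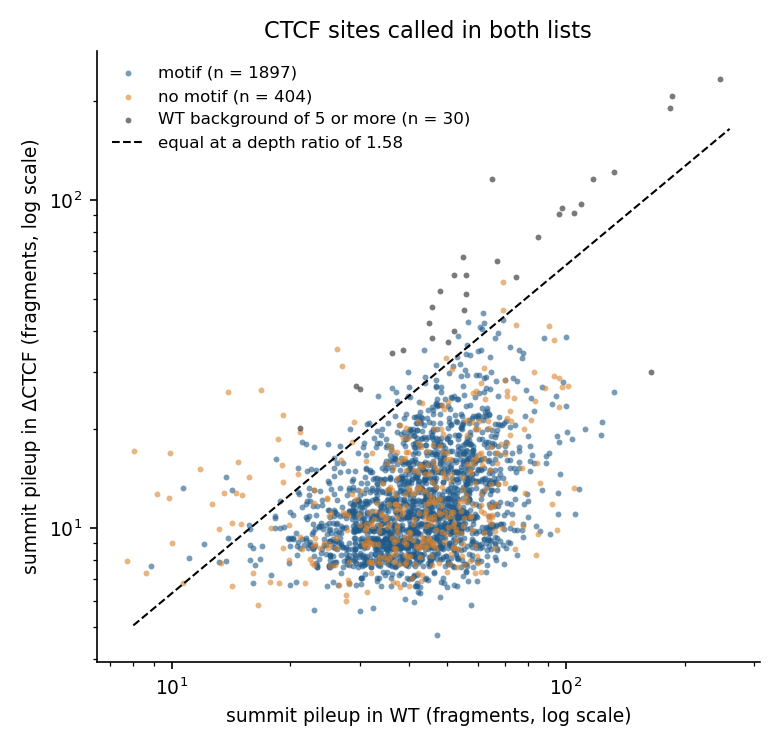
Summit pileup in WT (x axis, fragments, log scale) against ΔCTCF (y axis, fragments, log scale) for the 2331 shared sites, with points shifted by under 1 fragment to show overlaps, coloured by motif and by a WT background of 5 or more. Nearly all sites lie below the dashed line of equal signal at a depth ratio of 1.58, and the sites of high background lie mostly above it.

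At 96 of the shared sites the depth-scaled signal in ΔCTCF was at least 100% of that in WT. Only 37.5% (28.5 to 47.5) of these held the motif, against 83.3% (81.7 to 84.8) of the other 2235. Promoters made up 26.0% of them against 13.5%, and 13.5% against 3.31% overlapped a MAZ peak of WT. A background of at least 5 was found at 29 of the 96, and 7 lay within Ctcf itself.

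The 10 residual sites that were strongest in ΔCTCF outside chromosome 18 are described next. Their fold enrichment was 35.5 to 58.9 in WT, all 10 had a RAD21 peak in both WT and ΔCTCF and a CTCF peak in ΔCTCF/ΔMAZ, and 0 of the 10 lay at a promoter. The motif was found at 8 of the 10. Over all residual sites the shares were 93.8% and 91.4% for RAD21 in WT and ΔCTCF, 14.0% for promoters and 81.4% for the motif, against which 10 sites are too few to set the group apart. For a CTCF peak in ΔCTCF/ΔMAZ the share was 65.9% over all residual sites and 78.9% over those of the strongest decile. The strongest, at chr6:134863185-134863582 and 24405 bp from the transcription start site (TSS) of the orphan receptor gene Gpr19, had a fold enrichment of 36.6 with 69 fragments in WT and 34.1 with 56 fragments in ΔCTCF. Its depth-scaled remainder was 129%, and its best motif score of 9.66 was under the threshold of 14.2.

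The Gm16754 site at chr9:21220369-21220870 kept 45 of 62 fragments, with a fold enrichment of 40.7 in WT and 33.3 in ΔCTCF. Upstream of Arid3a, a gene for a DNA-binding protein, 41 of 90 fragments remained, a depth-scaled 71.8%, the lowest of the 10. The other 9 kept 90.9% or more, which partly follows from how the 10 were chosen. Other named sites of this set lay near Gm32486, Dab2ip, BC028471, Grb2 and Slc29a3.

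The 10 named lost sites stood higher in WT. They were ranked by their WT value with chromosome 18 left out, where the residual set was ranked by ΔCTCF. Their fold enrichment was 53.7 to 63.9 and their pileup 83 to 106 fragments, against 53 to 90 fragments at the 10 residual sites, and a remainder above 8.92% of WT could have passed in ΔCTCF at any of the 10 by the limit of 5 fragments, or above 14.7% by that of 8. All 10 overlapped a RAD21 peak of WT, 5 overlapped one of ΔCTCF and 5 held the motif. Over the lost sites of the strongest decile the shares were 92.1%, 61.7% and 80.5%. The highest of the 10 was at the promoter of Comtd1, 76 bp from the TSS, with 95 fragments and a motif score of 13.6, just under the threshold. Of the 10 strongest WT peaks, each with a fold enrichment of 64.6 or more, 9 were residual, so a stronger lost site lies outside the named set. At the promoter of H2-DMa, which encodes a chaperone of antigen presentation, 93 fragments were found in WT. The site 1978 bp from Ndufa4l2 had 106 fragments and the one 3031 bp from the homeobox gene Gbx1 had 99.

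Keap1, which encodes the sensor of oxidative stress that holds NRF2 in check, had both classes close by. The lost peak at chr9:21241319-21241742, 2180 bp from its TSS, had 91 fragments in WT and no ΔCTCF peak, whereas the residual Gm16754 peak, on the other side of the gene start and 18193 bp from the nearest annotated Keap1 TSS, was the second strongest of the ΔCTCF list among those named. In WT the lost peak was the stronger of the pair, at 59.7 against 40.7, and it lacked the motif (score -4.37). Further named lost sites were the promoters of Vps36 and Lsm11 and sites near 4930509E16Rik, Gm20686 and Ifi30.

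Position relative to genes differed between the classes. Promoters, defined as summits within 1 kb of a TSS, made up 14.0% (12.7 to 15.5) of residual and 8.65% (8.30 to 9.01) of lost sites. Put the other way, 13.6% (12.3 to 15) of promoter peaks were residual against 8.35% (8.01 to 8.71) elsewhere. Much of that gap went with strength: within deciles of fold enrichment the Mantel-Haenszel odds ratio was 1.06 (0.922 to 1.22). The direction varied between deciles. Promoters had the lower share in decile 9, 15.8% against 22.1% elsewhere, and the higher one in decile 10, 44.3% against 40.5%, and in decile 1, 8.50% against 0.656%. In decile 1 the promoter share was made up of 17 of 200 peaks, of which 16 had a background of at least 5. Without peaks of such background it was 0.549% (1 of 182) against 0.165%, and the odds ratio over all deciles was 0.982 (0.849 to 1.14). Introns and intergenic DNA differed at like strength. Intron peaks were residual in 5.96% (5.54 to 6.40) of 11633 cases, with an odds ratio of 0.592 (0.535 to 0.655). Intergenic peaks were residual in 10.7% (10.1 to 11.3) of 11167, with an odds ratio of 1.58 (1.44 to 1.74). Coding exons and other exons had 7.51% and 11.5%, with odds ratios whose intervals held 1.

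CpG content went with retention within deciles of strength. Residual summits had a median of 5 CpG dinucleotides in the 200 bp round them and lost summits 2.00. The residual share ran from 1.79% (1.36 to 2.36) of peaks with 0 CpG to 21.8% (19.4 to 24.4) of those with 9 to 12, and was 18.9% at 13 or more. In the strongest decile the same shares were 15.6% (9.70 to 24.2), 54.6% (48.3 to 60.8) and 48.1% (43.1 to 53.2). With 6 or more CpG against fewer, the odds ratio within deciles was 1.88 (1.70 to 2.08) over all peaks and 2.19 (1.95 to 2.45) away from promoters. At promoters it was 1.20 (0.869 to 1.65). Windows rich in CpG in the sense of a CpG island (GC of at least 50% and an observed-to-expected ratio above 0.6) held 16.6% of residual and 6% of lost sites.

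**Figure D3:**
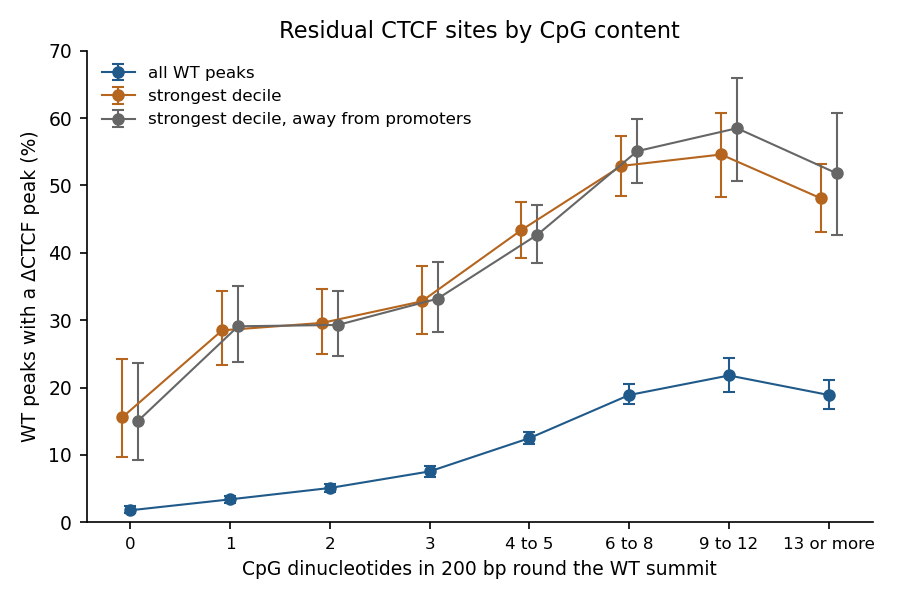
Share of WT CTCF peaks with a ΔCTCF peak (y axis, %) by number of CpG dinucleotides in the 200 bp round the WT summit (x axis), for all WT peaks, the strongest decile, and the strongest decile away from promoters, with 95% Wilson intervals. Each series has its highest share at 9 to 12 CpG, 21.8% over all peaks and 54.6% in the strongest decile.

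The motif itself was present in most sites of either class. A match within 50 bp of the summit was found at 81.4% (79.8 to 83.0) of residual and 70.9% (70.3 to 71.5) of lost sites, at a threshold set so that 1.00% of windows beside the peaks passed. Within deciles of strength the odds ratio of retention with a motif was 1.14 (1.01 to 1.28), and with a window of 100 bp to each side it was 1.11 (0.976 to 1.27), an interval that holds 1. Motif centres lay a median of 14.5 bp from the WT summit at residual sites and 15.5 bp at lost ones.

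Letters inside the motif differed more than its presence. Among the 14034 motif sites outside repeats, 7.31% (6.72 to 7.95) of those with no CpG in the 20 bases were residual, 14.6% (13.7 to 15.6) of those with 1, 20.9% (18.8 to 23.1) with 2 and 25.1% (20.9 to 29.8) with 3 or more. Strength rose alongside, with a median fold enrichment of 14.0, 16.0, 20.4 and 24.2 in these groups. Within deciles the odds ratio for 1 or more CpG was 1.80 (1.59 to 2.03). Among motif sites of the strongest decile, repeats included, the share was 32.6% with no CpG and then level, at 47.1%, 47.3% and 47.0%. Of the motifs printed above, those near Gm16754 and Slc29a3 and the 3 lost ones each hold 2 CpG, and the Gm12349 motif holds 0. With positions counted from 1 at the 5′ end of the motif, G at position 14 went with a residual share of 14.8% and A there with 8.71%. T at position 10 went with 14.7% and G with 10.5%, at an odds ratio for T of 1.65 (1.46 to 1.86) within deciles. C at position 5 went with 14.2% and G with 9.46%. T at position 15 had the lowest share of these, 5.03%, with an odds ratio of 0.505 (0.380 to 0.671). Bases at neighbouring positions form the CpG counts, so these values are not independent of one another.

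A higher motif score did not mean a higher residual share over all motif sites. The share was 9.58% in the lowest quintile of scores and 7.49% in the highest. Repeats made up 63.6% of the highest quintile and 7.04% of the lowest. Motif sites in repeats were residual in 4.43% (3.89 to 5.04) of 4925 cases, with a median fold enrichment of 11.3, and those outside repeats in 12% (11.4 to 12.5), with a median of 15.6. Outside repeats the share went from 9.62% in the lowest quintile to 13.3% in the highest. Summits in repeats of any kind made up 11.4% of residual and 24.2% of lost sites, and at like strength the odds ratio was 0.626 (0.542 to 0.723).

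Residual sites without the motif numbered 433. Their fold enrichment in WT had a median of 26.1, close to the 27.0 of residual sites with a motif. Promoters made up 25.9% (22.0 to 30.2) of them against 11.3% (9.98 to 12.8), and 80.8% (76.9 to 84.3) overlapped a RAD21 peak of ΔCTCF against 93.8% (92.7 to 94.8). A window of 100 bp to each side found a motif at 72 of the 433, and at 107 the best score was below 0.

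RAD21, which was not used to define the classes, followed them. Of the residual sites 93.8% (92.7 to 94.7) overlapped a RAD21 peak in WT, and of the lost sites 63.7% (63.1 to 64.3). Much of this gap in WT went with strength. In the strongest decile the shares were 94.1% and 92.1%, and within deciles the odds ratio of retention with a RAD21 peak in WT was 2.58 (2.13 to 3.12). In ΔCTCF the shares were 91.4% (90.2 to 92.5) and 21.7% (21.2 to 22.2). Residual sites had nearly the same RAD21 share with and without auxin, and lost sites had a lower one after auxin. In the strongest decile 94.2% of residual and 61.7% of lost sites overlapped a RAD21 peak of ΔCTCF, so strong lost sites often kept a RAD21 call. Within deciles the odds ratio of CTCF retention with a RAD21 peak in ΔCTCF was 14.2 (12 to 16.7). Each of these lists is also a single library.

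**Figure D4:**
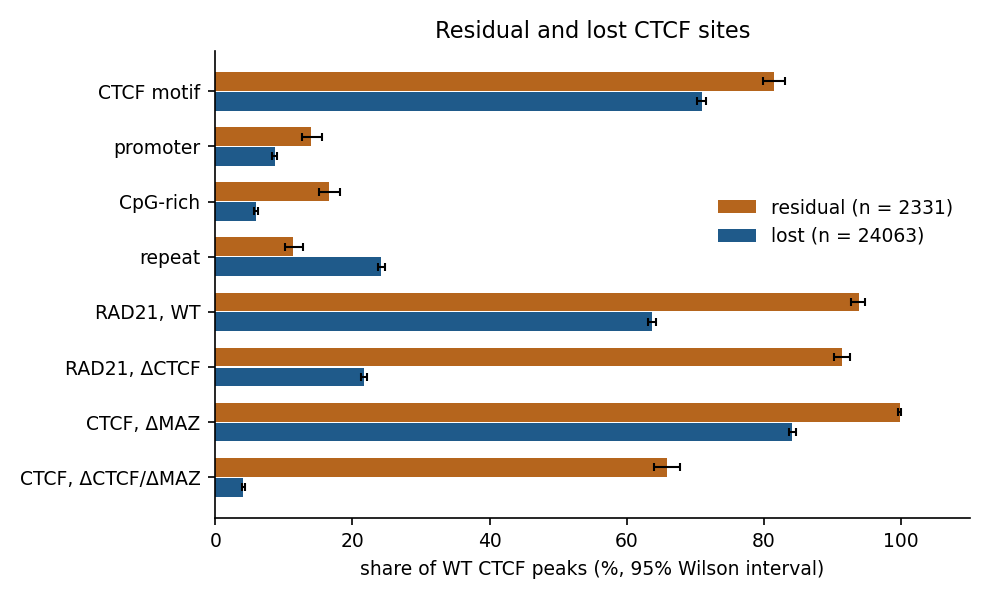
Share of residual and of lost CTCF sites (x axis, %, with 95% Wilson intervals) that held the motif, lay at a promoter, in a CpG-rich window or in a repeat, or overlapped a peak of RAD21 or of CTCF in another condition. The widest gaps are those of RAD21 in ΔCTCF (91.4% and 21.7%) and CTCF in ΔCTCF/ΔMAZ (65.9% and 4.12%).

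CTCF was also mapped in cells with Maz knocked out, which gives a separate pair of libraries. In untreated ΔMAZ cells 99.9% of residual and 84.1% of lost sites were called. In ΔCTCF/ΔMAZ cells, after auxin, 65.9% (64.0 to 67.8) of the residual sites and 4.12% (3.87 to 4.38) of the lost sites were called. In the strongest decile these were 78.9% (76.3 to 81.2) and 23.1% (21 to 25.2), so the sites called after auxin in one line were called more often in the other at like strength. MAZ peaks were scarce at either class, 3.73% of residual and 1.64% of lost sites in WT, and the odds ratio within deciles was 1.03 (0.797 to 1.34) for MAZ in WT and 1.54 (1.16 to 2.03) for MAZ in ΔCTCF.

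Spacing differed with the number of sites. Neighbouring WT summits lay a median of 30.7 kb apart (quartiles 9.70 to 86.0) and neighbouring residual summits 308 kb (96.4 to 981). The 2331 strongest WT peaks, the same number, lay a median of 250 kb apart. Gaps above 1 Mb made up 1.22% of those between WT peaks and 24.5% of those between residual peaks, and gaps above 5 Mb numbered 3 and 105. Among the 2331 strongest WT peaks 21.8% of gaps were above 1 Mb, and those above 5 Mb were slightly more numerous than between residual peaks. The longest residual gap was 31.0 Mb on chromosome X, from the residual site nearest Xiap, with 94 WT peaks in between. One of 29.5 Mb on chromosome 16 held 95 WT peaks. After the Pgk1 site on chromosome X came a gap of 27.8 Mb, with 15 WT peaks in it. The longest gap between the 2331 strongest WT peaks was 109 Mb.

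Residual sites lay closer to other WT peaks than lost sites did, at a median of 8.60 kb against 13.9 kb. The residual share was 12.4% (10.8 to 14.3) where the nearest WT peak was within 1 kb and 3.49% (2.80 to 4.35) where it was over 100 kb away. Median fold enrichment was 14.0 and 10.4 in these groups, and within deciles the odds ratio for the isolated peaks was 0.643 (0.501 to 0.826). Whether the next WT peak was residual differed more with the fate of the first at short gaps than at long ones. At a gap of 1 to 5 kb the next WT peak was residual in 19.2% (15.6 to 23.5) of cases after a residual peak and in 12.3% (11.2 to 13.6) after a lost peak, and beyond 100 kb these were 6% and 5.91%. The 19.2% rests on 73 of 380 pairs. Strength was not held alike here, and the closely spaced peaks of high background and on exons of Ctcf (below) were left in. How much of the difference they make up was not tested.

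Motif orientation showed no such difference. Of neighbouring WT motif sites 25% were convergent, facing each other, 25% divergent and 50.0% in the same direction, and among neighbouring residual sites the shares were 24.1% (22.3 to 26.1), 23.9% (22.0 to 25.8) and 52.0% (49.7 to 54.3). Convergent residual pairs lay a median of 440 kb apart and divergent ones 278 kb, and over all WT motif sites the medians were 64.3 kb and 34.2 kb.

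Residual shares on the autosomes ran from 6.28% (4.80 to 8.19) on chromosome 19 to 10.8% (9.32 to 12.4) on chromosome 9. The value for chromosome 9 takes in its 17 peaks of high background, of which 15 were residual. Chromosome X had 3.38% (2.15 to 5.27) of 533 peaks against 8.94% over the autosomes. Chromosome Y had 3 of 16 (18.8%, 6.59 to 43.0). The peaks on X were also weaker, with a median fold enrichment of 9.99 in WT, and within deciles the odds ratio for X was 1.19 (0.724 to 1.96).

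Ctcf, the gene of the depleted protein, carried a pattern of its own. It spans chr8:105636568-105682922 and has 12 exons, of which exons 3 to 12 are coding. All 10 ΔCTCF peaks within the gene had their summit on a coding exon, 1 on each of the 10, and 8 of the 9 WT peaks within it did so too. Over the whole WT list coding exons held 1.77% of summits. None of these exon peaks held the motif.

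On exon 3 the fold enrichment was 13.3 in WT (19 fragments) and 17.0 in ΔCTCF (22 fragments). Exon 7 had 8.09 and 11.6, exon 11 had 6.84 and 9.63, and exon 12 had 10.7 and 12.6. Exon 8 was the one with a lower value in ΔCTCF, 6.50 against 8.71. Exons 5 and 10 had a peak in ΔCTCF only, with 7.23 and 8.15. The remaining exons with a peak in both lists, 4, 6 and 9, also had the higher value in ΔCTCF. At these 8 residual sites the depth-scaled signal in ΔCTCF was 97.2% to 203% of that in WT.

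Peaks on the same coding exons were listed with other antibodies. CTCF lists of ΔMAZ and ΔCTCF/ΔMAZ had peaks on 9 and 6 of the 10 coding exons, MAZ on 7 in WT and 2 in ΔCTCF, and RAD21 on 2 in WT and 8 in ΔCTCF. RAD21 lists of the Maz knockout cells had peaks on 4 of these exons without auxin and 3 with it. The MAZ lists of both Maz knockout conditions had 0. What these exon peaks come from, and whether they stand for CTCF bound to the gene, was not tested, and they count as residual by the overlap rule alone. Without the 8 WT peaks on coding exons of Ctcf the residual share over all WT peaks was 8.80%. They take part in the counts for Ctcf below.

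**Figure D5:**
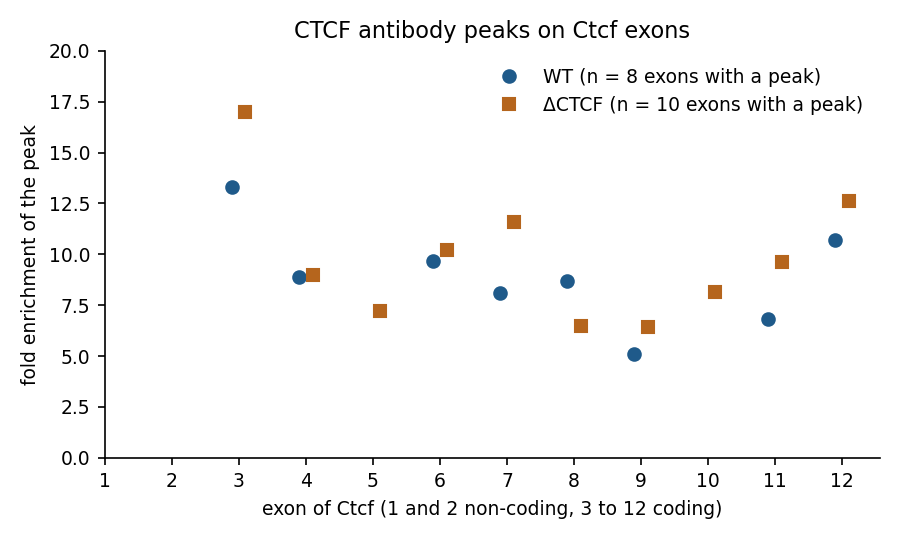
Fold enrichment of the CTCF antibody peak (y axis) on each exon of Ctcf (x axis, exons 1 and 2 non-coding, 3 to 12 coding) in WT (circles) and ΔCTCF (squares), 1 library each. The 10 coding exons each have a ΔCTCF peak, 8 of them have a WT peak, and the ΔCTCF value is the higher of the pair on 7 of those 8.

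By gene, 12049 of 21924 protein-coding genes had a WT CTCF peak within the gene or 10 kb to either side. Of these, 1834 kept at least 1 residual peak, 10215 had every peak lost and 441 had every peak residual. The genes with most residual peaks were Gm20388, a long predicted locus, with 13 of 140, then Gm10717 with 11 of 11, Gm10718 with 10 of 10, Ctcf with 8 of 10, and Gm10719 with 8 of 8, level with Gm10720. Apart from Gm20388 these are Ctcf and the stretch of high background at the start of chromosome 9. The genes of that stretch lie within 10 kb of one another or nearly so, and the same peaks are counted for several of them. The genes with most lost peaks and no residual one were Dnah8, for a heavy chain of axonemal dynein, with 26, Nav2 and the phosphodiesterase gene Pde4d with 17 each, Agap1 with 14, and Pitpnc1 with 13, level with the splicing regulator gene Rbfox1.

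Gene groups were then compared with the 8.83% of all WT peaks, each peak counted once within a group. Over the 16 core pluripotency genes 3 of 17 peaks were residual (17.6%, 6.19 to 41.0). Both peaks near Sox2, the pluripotency factor, were residual. The one at chr3:34640759-34641135 went from 42 to 14 fragments and the one at chr3:34647726-34648032 from 25 to 11, so that 51.9% and 68.7% remained after depth scaling. At Sall4 the strongest of 3 peaks was residual, with 53 fragments in WT and 7 in ΔCTCF. All 4 peaks near Tbx3, all 3 in Esrrb and both near Pou5f1, which encodes OCT4, were lost.

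Over genes for cohesin subunits and regulators 2 of 20 peaks were residual (10.0%, 2.79 to 30.1). Nipbl, for the cohesin loader, Smc3 and Stag1 each had 3 peaks, all lost. The promoter of Pds5b, for a cohesin release factor, kept a peak with 62 fragments in WT and 14 in ΔCTCF. In the group of CTCF, MAZ and related zinc finger genes 10 of 28 were residual (35.7%, 20.7 to 54.2), and 8 of the 10 were those on Ctcf. Without the peaks at Ctcf 2 of 18 were residual (11.1%, 3.10 to 32.8), an interval that holds the background. The residual ones were at Zfp341, where 1 of 5 peaks was residual, and at Ctcfl, the germline relative of Ctcf, where 1 of 4 was. The Ctcfl peak had 11 fragments in WT and 13 in ΔCTCF. The 3 peaks near Maz were lost.

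Hox genes, which pattern the body axis and lie in clusters with CTCF sites between active and silent parts, had 8 of 22 peaks residual (36.4%, 19.7 to 57.0) near the genes of the list. Counted from the first to the last gene of each cluster, which takes in a few further peaks, the numbers were 3 of 6 in HoxA, 2 of 8 in HoxB, 3 of 4 in HoxC and 2 of 5 in HoxD. Near Hoxa7 the peak at chr6:52221655-52222014 went from 66 fragments to 12, and beside Hoxa5 the peak at chr6:52204460-52204924 went from 58 to 17. Near Hoxc10 and Hoxc8 the peaks at chr15:102966396-102966735 and chr15:102987422-102987744 went from 65 to 14 and from 39 to 13. These 4 Hox sites were among the stronger ones in WT. The weak peaks at Hoxa3 and Hoxc5 had 10 and 9 fragments in WT and 9 and 13 in ΔCTCF, and neither held the motif. Near Hoxb5 all 3 peaks were lost, including one of 49 fragments.

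Imprinted genes, expressed from 1 parental allele, had 0 of 21 peaks residual, for which the interval reaches 15.5% and so holds the background. Cdkn1c and Gnas had 3 lost peaks each, and Grb10 and Meg3 had 2 each. The X inactivation genes had 0 of 7 (up to 35.4%), with 3 lost peaks at Tsix, 2 at Firre, and 1 each at Chic1 and Rlim. Genes at known boundaries and long-range enhancers had 4 of 18 (22.2%, 9 to 45.2). Of the 2 peaks near Shh, the limb and neural morphogen gene, the one at chr5:28451110-28451558 went from 54 to 10 fragments. The other, with 14 fragments in WT, was lost. In the same group 1 of 3 peaks near Wnt6 and 1 of 2 near Bcl11b were residual. Both peaks near Ihh and both in Lmbr1, which holds the limb enhancer of Shh, were lost.

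Ribosomal protein genes had 1 of 32 residual (3.12%, 0.554 to 15.7), and Rpl13, Rpl3 and Rpl32 lost 3 each and Rpl11 lost 2. Among genes of DNA methylation, its removal and its upkeep at imprints 1 of 13 peaks was residual (7.69%, 1.37 to 33.3). It was the peak near Dnmt1, for the maintenance methyltransferase, with 59 fragments in WT and 26 in ΔCTCF. Tet1, for a demethylating enzyme, lost 4 peaks, Trim28, for a corepressor, lost 3, and the single peak near Dnmt3b, with 50 fragments, was lost. The intervals of the Hox, zinc finger and boundary groups lay above 8.83%, that of the boundary group by little, and that of the zinc finger group only with the exon peaks of Ctcf. Median fold enrichment in WT was 16.4, 11.3 and 18 in these 3 groups and 13.3 over all WT peaks.

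Of the 52 ΔCTCF-only peaks none held the motif within 50 or 100 bp (0 of 52, which allows a share of up to 6.88%), against 69.4% (67.5 to 71.2) over all ΔCTCF summits. Promoters made up 25% (15.2 to 38.2), against 14.3% over all ΔCTCF peaks. A RAD21 peak of ΔCTCF was found at 11.5% (5.40 to 23.0) against 89.7%, and a MAZ peak of ΔCTCF at 19.2% (10.8 to 31.9) against 3.74%. They were weak, with a median of 9 fragments. Of the 52, 32 (61.5%) overlapped no peak of any other list, which held for 10.9% of the lost WT peaks, and 7 had a background of at least 5.

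Outside chromosome 18 the highest fold enrichment was at the promoter of Snx12, 103 bp from its TSS, with 14 fragments and a fold enrichment of 10.8. Others among the stronger were an intronic site nearest Def8 with 13 fragments and the promoters of Slc39a10, Epc2 and Ddx17 with 12 each. The peak on exon 10 of Ctcf, whose nearest TSS is that of Carmil2, had 10, as did those near Usp49, Ppp1r13b and Arhgef40.

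Sites were also counted over the 12 lists. A median of 8.00 held a peak at a residual site, 2 of them by definition, and 4.00 at a lost one, which by definition is missing from the ΔCTCF list. A set of 34 residual sites was in 10 or more lists, 22 of them at promoters, 17 with the motif and 8 with a background of at least 5. Over all residual sites promoters made up 14.0%, motif sites 81.4% and sites of such background 1.29%. Among the promoters, chosen after their values were seen, were those of Sh3gl1 (104 fragments in WT, 19 in ΔCTCF), Vps18 (96 and 29), Timm22 (93 and 37) and Erlin2 (88 and 27). Sites near Carm1 and at Pgk1 went the other way, with 27 and 17 fragments in WT and 31 and 26 in ΔCTCF, and they were in 12 and 11 lists. The Carm1 site was in both MAZ antibody lists of the Maz knockout cells and the Pgk1 site in 1 of them, where the antibody's target gene was knocked out, and neither held the motif. Whether these peaks depend on the antibody was not tested.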

How the data were processed

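The lists hold ChIP-seq peaks of single libraries. Per the labels and the methods, the authors mapped reads to mouse build mm10 with Bowtie2, used SAMtools to drop duplicates and poor alignments, and made narrow peak calls by MACS, for which they name a MACS 1 release and the defaults of MACS 2. Use of an input control, and any scaling of the libraries before peak calling, are not stated. For every peak the deposited columns give a score (10 times −log10 q, not used), a fold enrichment (a ratio of pileup to background, each with 1 added), the −log10 values of p-value and q-value, and the summit. Quality and duplicate filters and the called threshold set which weak sites can appear.

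Groups came from the sample titles. Overlap of at least 1 bp was computed in Python 3.11.15 and gave the same peaks as bedtools 2.31.1 for 12 pairs of lists. Whole-number pileups and backgrounds were worked back out of the −log10 p-value and the fold enrichment as deposited, within 0.001 for every one of the 28775 peaks. The lists hold no read totals and no counts of the Drosophila spike-in, so depth is known only as the ratio given in the report. Gene positions are those of GENCODE M21 and sequence is that of GRCm38 (mm10). Repeats are the lower-case bases of the genome file. The motif of 20 positions was aligned on 16289 sites found from words of 8 letters enriched at WT summits, and the threshold of 14.2 was set where 1.00% of 52052 windows 500 bp beside the peaks passed. Both strands were searched. Scripts were tested on simulated data.

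Shares have Wilson 95% intervals. Mantel-Haenszel odds ratios over deciles of WT fold enrichment, with their 95% intervals, are descriptions. Like strength means the same decile, within which strength still varies, from 27.4 to 77.1 in the strongest. No test was run, since each group had 1 list. Sites were compared also under a reciprocal overlap of 50%, a gap of 500 bp, −log10 q of at least 5 or 10 in both lists, equal list length, the WT library scaled down by the depth index, merged peaks, a TSS distance of 2.5 kb, a rank by −log10 q, a motif window of 100 bp and, chosen after seeing the data, without sites of high background, without the Ctcf exon peaks and with depth scaled by background.

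Named sites are 10 residual, 10 lost and 10 ΔCTCF-only peaks, called by the nearest TSS. They were ranked by fold enrichment (in ΔCTCF, WT and ΔCTCF) with chromosome 18 left out. Named genes are the 5 with most residual and the 5 with most lost peaks (and those level with the fifth), and up to 4 with most WT peaks in each gene list. Pds5b, Shh, Sox2 and Hoxb5 are level with the last gene of their lists. The Hox clusters as a whole, the longest gaps, and the sites in 10 or more lists were chosen after their values were seen. Genes and sites on chromosome 18 are counted elsewhere and not named. The classes and gene lists were chosen with earlier results of these data known. For the imprinted and X inactivation lists 24 of 25 and 8 of 10 symbols were in the annotation. One residual and one ΔCTCF-only peak that the naming rule selects are not reported here.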

Additional observations from a re-analysis of the deposited data

How the results depend on the processing

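No paired analysis was possible because only 1 list stood on each side. Of 32 alternative values, 16 stayed within the interval of the reported value and 16 did not, and none changed which of residual and lost sites had the higher motif or RAD21 share. The share of WT peaks called after auxin was 7.71% with a reciprocal overlap of 50%, 8.45% and 4.79% with −log10 q of at least 5 and 10 in both lists, 9.45% with the WT library scaled down by the depth index, 9.29% with it scaled by the lowest background (chosen after seeing the data) and 42.5% among the 2381 strongest WT peaks, as many as the ΔCTCF list holds, where fewer weak peaks enter by construction. The share of ΔCTCF peaks with a WT peak was 85.5% with the reciprocal overlap and 98.6% with −log10 q of at least 5. The residual share at promoters was 11.8% with 2.5 kb, and away from promoters it was 7.97% with −log10 q of at least 5. With a motif window of 100 bp to each side the motif share was 84.5% of residual and 79.6% of lost sites, a narrower gap than the reported one, and 2.22% of windows beside the peaks passed. With reciprocal overlap, RAD21 shares were 91.8% and 61.8% in WT and 87.1% and 20.3% in ΔCTCF for residual and lost sites. Limits are set by single libraries without replicates and by the depth of the ΔCTCF library, at which weak remainders cannot be called.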
